A study of Stylophora pistillata with 18 samples.

Results

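The response that 3'3'-cUA and 2'3'-cGAMP have in common was measured in adult Stylophora pistillata, a reef-building stony coral, as the average change with both cyclic dinucleotides relative to seawater. Its treated side held 12 libraries, 6 with 250 µM cUA and 6 with 250 µM cGAMP, and its seawater side held 6 libraries, so that all 18 libraries of the study were used. Every library came from wild type tissue of 1 of 2 adult colonies after 18 h, with 3 libraries per treatment and colony, named here by treatment, colony number and specimen letter (control 1A). Specimens of a colony share its genotype, and the labels do not say that they were kept or extracted apart, so the p-values below measure the spread between specimens of 2 colonies and not between colonies of the species. Of 29419 gene models in the count table, 21375 had enough reads to be tested.

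Cyclic dinucleotides are second messengers that cGAS and its relatives, the cGAS-like receptors, make from nucleotides after they sense foreign or misplaced nucleic acid. In vertebrates 2'3'-cGAMP made by cGAS binds STING, which switches on interferon and NF-kB signalling, while dinucleotides with uracil are known from bacterial antiviral systems and from animal cGAS-like receptors. Cnidarians, the phylum of corals and sea anemones, carry homologues of both enzymes and receptor but have no interferons. The deposited models carry no product names, and the symbols they could be matched to are LOC numbers with the exception of Cglr2. For that reason the models are described by identifier, position, structure and level, and no function is given to them.

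Total counts ran from 22175801 to 41800393 per library. They were 27090845 to 41800393 in the controls, 24307409 to 34361709 with cUA and 22175801 to 28033513 with cGAMP. Most cGAMP libraries thus had fewer counts than every control. Control 1A and cUA 2A had the lowest composition factors, the scaling that corrects for a few abundant transcripts taking a large share of the reads, at 0.714 and 0.619 against 0.862 to 1.23 in the others. Levels are given as CPM, the reads of a model relative to the scaled library total, and fold changes on the log2 scale with their standard errors. Calls were made with edgeR's quasi-likelihood test, colony being a covariate, at a Benjamini-Hochberg adjusted p of less than 0.05 over the 21375 models.

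Transcripts of 1988 models rose (9.30% of those tested) and those of 2608 fell (12.2%) in the average of both compounds, 21.5% together. The median log2 fold change was 1.25 among the risers and -1.24 among the fallers, with median standard errors of 0.27 and 0.30, while the median over all tested models was -0.05. Estimates over 4-fold were held by 492 risers and 490 fallers, and estimates over 16-fold by 40 and 33. A stricter test, that the change itself exceeds 2-fold (edgeR's glmTreat), was passed by 448 risers (2.10% of those tested) and 421 fallers (1.97%), 4.07% together. The median sizes of rise and fall were alike. Falls outnumbered rises among all calls and among estimates over 2-fold, held by 1720 fallers and 1226 risers. They did not in the 2-fold test or among estimates over 4-fold and 16-fold. In colony 2 fitted by itself 58.5% of the calls were rises. RNA of whole tissue cannot tell fewer cells of a type from less RNA per cell, here and in all that follows.

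**Figure D1:**
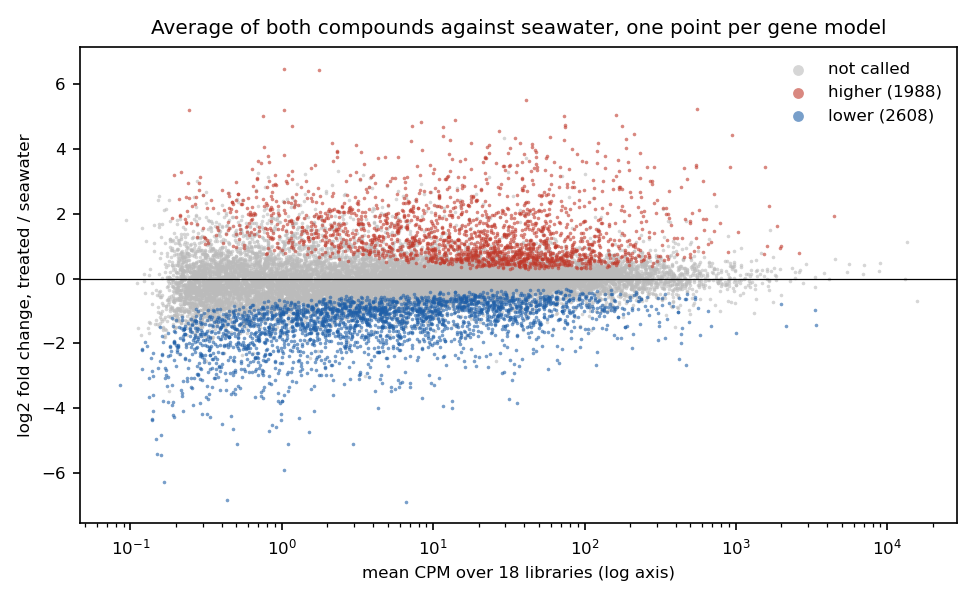
Log2 fold change of treated against seawater libraries (vertical axis) plotted over the mean CPM of 18 libraries (horizontal log axis), one point per tested gene model. The 1988 models called higher in red lie above 0 and the 2608 called lower in blue below 0, and the mean on the horizontal axis includes the treated libraries.

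In 553 models all 12 treated libraries stood above the highest of the 6 control libraries (2.59% of those tested), and in 315 all 12 stood below the lowest (1.47%), 4.06% together. All of these were also called. Among them 354 and 205 passed the 2-fold test too. The separation is read from the same libraries as both tests, so it does not support them. Leaving out each of the 18 libraries in turn, 1335 of the risers (67.2%) and 1560 of the fallers (59.8%) were called every time. The control libraries moved the counts most, to 1479 and 1859 without control 2A and to 2974 and 3209 without control 1A.

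The called models took up a changed share of each library. The 1988 risers held between 5.24% and 8.18% of the counts of a control library, with a median of 5.86%. With cUA they held 11.4% to 14.1% (median 13.3%) and with cGAMP 13.4% to 18.7% (median 15.4%). The 2608 fallers held 7.88% to 14.4% in seawater (median 11.6%), 2.87% to 7.16% with cUA (median 6.65%) and 3.87% to 4.72% with cGAMP (median 4.28%). The treated and control libraries did not overlap in either share, but the models were chosen for their change in these same libraries, so the shares describe the calls and do not support them. In the share of the fallers the controls were split, with control 1A and 2C at 7.88% and 7.92% and the other 4 higher.

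**Figure D2:**
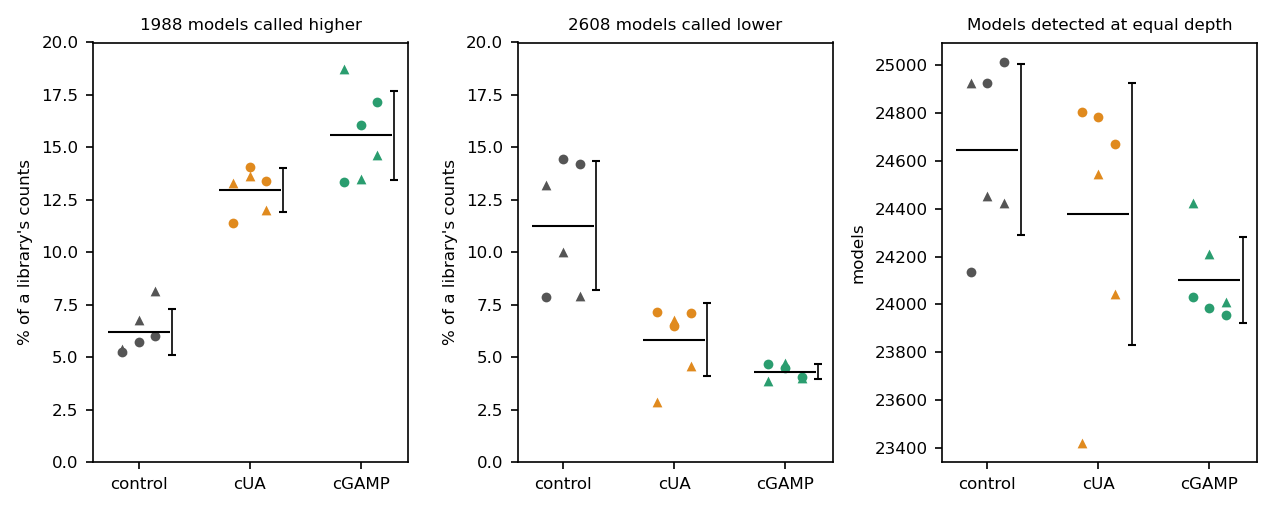
Share of each library's counts held by the models called higher (left) and lower (middle), in %, and number of models detected when all libraries are thinned to the same depth (right), by treatment. Circles are colony 1, triangles colony 2, lines the mean and bars the SD of 6 libraries. Treated libraries reach 11.4% to 18.7% on the left, where controls end at 8.18%, while detected models overlap between the groups.

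Calls with both compounds made up 53.2% of the risers and 31.1% of the fallers. With each compound tested on its own in the same fit, 1058 of the risers (53.2%) and 812 of the fallers (31.1%) were called with both, where cUA called 5.91% of all tested models as higher and 4.29% as lower, and cGAMP 9.22% and 12.3%. A further 682 risers and 1442 fallers were called with cGAMP but not cUA, and 141 and 96 with cUA but not cGAMP. Another 107 risers and 258 fallers were called in the average and with neither compound, with median log2 fold changes of 0.77 and -0.90. The 2 compounds share the same control libraries, so these overlaps are no separate evidence for either.

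Side by side, the median log2 fold change of the risers was 1.13 with cUA and 1.32 with cGAMP. That of the fallers was -0.98 with cUA and -1.47 with cGAMP. An estimate of over 2-fold with each compound was found for 1060 risers and 1178 fallers. A single called model, a faller, had opposite signs with the 2 compounds. The models were called on the average of both, which favours a shared sign, so this count does not show that the compounds act alike. Model by model, edgeR called 0 of 21375 as different between cUA and cGAMP (0.00%), with 1830 at an unadjusted p below 0.05 (8.56%). Among the risers 279 (14.0%) and among the fallers 649 (24.9%) were at an unadjusted p below 0.05 for this difference. The unadjusted 95% interval of the difference reached a median of 0.56 to either side among risers and 0.72 among fallers on the log2 scale, so smaller differences between the compounds than these were mostly not detectable even before adjustment.

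The colonies gave a comparison with no library in common. In colony 1 alone, from 3 control and 6 treated libraries, 974 of 20860 models rose (4.67%) and 1473 fell (7.06%). In colony 2 alone 669 of 20300 rose (3.30%) and 474 fell (2.33%). The risers of colony 1 were mostly higher in colony 2 as well, in 947 of the 972 that were tested there (97.4%), where 48.5% of all models of colony 2 were above 0. Their median log2 fold change was 1.5 in colony 1, in which they were chosen, and 1.38 in colony 2. The fallers of colony 1 were lower in colony 2 in 1326 of 1416 (93.6%), against 51.5% of all models, with medians of -1.61 and -1.10.

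The reverse choice gave the same picture. Of the risers of colony 2, 648 of 667 (97.2%) were higher in colony 1, against 42.5% of all models, with medians of 2.32 in colony 2 and 1.69 in colony 1. Of its fallers 456 of 458 (99.6%) were lower in colony 1, against 57.5% of all models, with medians of -2.18 and -1.79. Models called in both colonies numbered 429 higher and 309 lower, and 0 were called in opposite directions by edgeR. Over the 20058 models tested in both, 68.2% had the same sign, and the fold changes had a Pearson correlation of 0.65, where models are not independent of each other.

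The test of a difference in response between the colonies called 0 models by edgeR (0.00%, smallest adjusted p = 0.755), and 1365 had an unadjusted p of less than 0.05 (6.39%). DESeq2 called 1, limma-voom 0 without and 625 with sample weights. The unadjusted 95% interval of this difference reached a median of 1.08 to either side on the log2 scale, so a 2-fold difference between the colonies was mostly out of reach of this test. Among all 4596 called models, 1 had opposite signs in the 2 colonies. These were called from both colonies together, which favours a shared sign, so this count is no separate evidence of agreement.

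**Figure D3:**
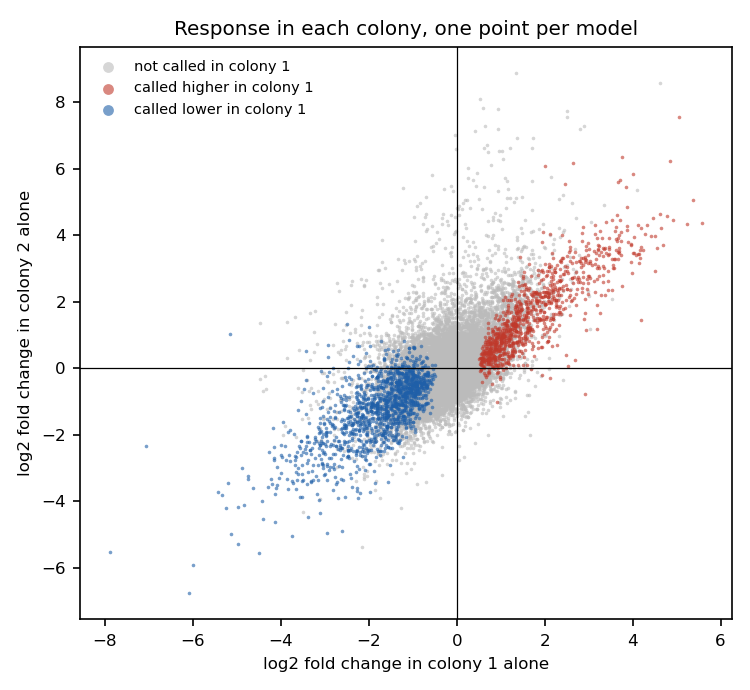
Log2 fold change of treated against seawater libraries in colony 2 (vertical axis) plotted over that in colony 1 (horizontal axis), each fitted alone, one point per model tested in both. Models called in colony 1 are coloured, and 97.4% of its risers in red lie above 0 and 93.6% of its fallers in blue below 0 on the colony 2 axis, whose libraries took no part in that choice.

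Models named below were eligible if they were called, averaged at least 1 CPM and changed in the same direction with each compound in each colony, as 1790 risers and 1897 fallers did. This average was taken over all 18 libraries, 12 of them treated, and 150 risers and 621 fallers lay below 1 CPM. A rule took the 6 largest fold changes, the 4 smallest p-values above 20 CPM and the 2 largest changes in CPM in each direction. The 20 CPM was an average of the same kind. A riser could reach these floors through its treated libraries, while a faller needed a higher seawater level. Rises and falls were thus named on unlike terms. The fall of Spis_XP_022808578_1 (log2 fold change -5.10, from 1.42 CPM in seawater to 0.0439 CPM treated) was left out by the 1 CPM floor.

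The largest rises among the eligible models belonged to models that were almost silent in seawater. Such models passed the floor of 1 CPM through their treated libraries. LOC111344807 (Spis_XP_022807804_1), which lies on scaffold NW_019218567.1 from 74254 to 75426 as 1 coding segment of the minus strand, had 2 counts in the 6 control libraries together and 387 in the 12 treated ones, a ratio of 127 after scaling by depth (exact 95% interval 34.8 to 1049, counting error only). Its log2 fold change was 6.49 ± 1.59 (SE, edgeR adjusted p = 0.00692). Of 12 treated libraries 11 lay above every control, and cUA 2A held 223 of the 387 counts, without which the log2 fold change was 5.17. The call was lost in each colony alone (edgeR adjusted p = 0.0793 and 0.109).

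LOC111342923 (Spis_XP_022805782_1, 2 coding segments, plus strand of NW_019218379.1, 18160 to 19301) was at 0 to 0.0532 CPM in seawater. It ran from 0.0925 to 11.9 CPM with cUA (median 0.669) and from 0.412 to 7.21 CPM with cGAMP (median 1.88). All 12 treated libraries stood above the controls, and the log2 fold change was 6.43 ± 1.21 (SE, edgeR adjusted p = 0.00092), or 5.51 without cUA 2A.

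Other models of the largest rises went from low or moderate to high levels. Spis_Spis3943_1, a model with 1 coding segment and no named predictor (minus strand of NW_019217821.1, 923844 to 925557), stood at 0.623 to 2.30 CPM in seawater (median 1.11). With cUA it stood at 12.9 to 133 CPM (median 43.8) and with cGAMP at 39.5 to 121 CPM (median 54.5). No treated library overlapped the controls, and the log2 fold change was 5.53 ± 0.63 (SE, edgeR adjusted p = 7.83e-06), with 4.85 in colony 1 and 6.24 in colony 2.

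Spis_XP_022783981_1 (8 coding segments, minus strand of NW_019217845.1, 897870 to 902803) was the most abundant of the 6. It stood at 7.53 to 48.1 CPM in seawater (median 19.3), at 155 to 1462 CPM with cUA (median 448) and at 491 to 2386 CPM with cGAMP (median 787). The groups did not overlap, and the log2 fold change of 5.25 ± 0.56 (SE, edgeR adjusted p = 3.98e-06) was 5.41 in colony 1 and 5.07 in colony 2. Per kb of coding length its mean level went from 17.9 to 690 CPM.

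LOC111325825 (Spis_XP_022785476_1, 2 coding segments, minus strand of NW_019217860.1, 595725 to 596474) stood at 3.30 to 15.6 CPM in seawater (median 5.24), 38.9 to 326 CPM with cUA (median 107) and 65.7 to 885.5 CPM with cGAMP (median 255). The log2 fold change of LOC111325825 was 5.05 ± 0.67 (SE, edgeR adjusted p = 3.81e-05). Spis_XP_022801879_1 (5 coding segments, minus strand of NW_019218191.1, 100933 to 103467) stood at 1.37 to 5.54 CPM in seawater (median 2.73), 16.6 to 496 CPM with cUA (median 48.1) and 38.7 to 172 CPM with cGAMP (median 89.1). Its log2 fold change of 5.03 ± 0.78 (SE, edgeR adjusted p = 0.000165) was 4.42 without cUA 2A, the library at 496 CPM. Neither model had a treated library within the range of the controls. All 6 of the largest rises were chosen by fold change in these same libraries, which favours such a separation.

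The rises with the smallest p-values were smaller than these, with smaller standard errors. Spis_XP_022778000_1 (2 coding segments, plus strand of NW_019219975.1, 7501 to 8158) stood at 10.3 to 19.3 CPM in seawater (median 13.9), 130 to 231 CPM with cUA (median 152) and 132 to 325 CPM with cGAMP (median 230). The rise was 3.80 ± 0.24 on the log2 scale (SE, edgeR adjusted p = 5.10e-08), with 3.67 in colony 1 and 3.91 in colony 2. The lowest treated library stood at 130 CPM and the highest control at 19.3 CPM.

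Spis_XP_022777999_1, on the other strand of the same short scaffold (89 to 2100, 3 coding segments), moved alongside it. It stood at 5.14 to 11.2 CPM in seawater, 82.4 to 142 CPM with cUA and 90.3 to 234 CPM with cGAMP, and the log2 fold change was 3.85 ± 0.25 (SE, edgeR adjusted p = 5.10e-08). Spis_XP_022777900_1 (11 coding segments, plus strand of NW_019219809.1, 511 to 10113) was at 2.80 to 6.24 CPM in the controls, at 20.1 to 39.7 CPM with cUA and at 42 to 70.9 CPM with cGAMP. In this model the cUA and cGAMP libraries did not overlap either, but the difference between the compounds did not pass the test (log2 difference -0.76, edgeR adjusted p = 0.352).

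Spis_XP_022777727_1 (4 coding segments, plus strand of NW_019219626.1, 17 to 1882) was at 6.63 to 16.1 CPM in the controls, at 63.2 to 97.8 CPM with cUA and at 86.5 to 175 CPM with cGAMP. The log2 fold changes of Spis_XP_022777900_1 and Spis_XP_022777727_1 were 3.47 ± 0.23 and 3.44 ± 0.23 (SE, edgeR adjusted p = 5.10e-08 each). In all 4 of these models every treated library stood above every control, and the log2 fold change was between 3.28 and 3.97 in each colony. The models were chosen by p-value and shared sign in these same libraries, so this describes the choice and does not support it.

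By amount of RNA, the largest rises were in 2 abundant models of different reliability. LOC111325804 (Spis_XP_022785431_1, 7 coding segments, plus strand of NW_019217860.1, 442353 to 445659) stood at 134 to 385.5 CPM in seawater (median 170), 1239 to 2401 CPM with cUA (median 1926) and 1953 to 4164 CPM with cGAMP (median 2218). No treated library came near the controls, and the log2 fold change was 3.44 ± 0.28 (SE, edgeR adjusted p = 3.14e-07).

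Spis_XP_022800942_1 (1 coding segment, plus strand of NW_019218162.1, 106866 to 107639) overlapped between the groups. It stood at 268 to 3753 CPM in seawater (median 768), 1296 to 19097 CPM with cUA (median 3410) and 3813 to 8012 CPM with cGAMP (median 4986), with 8 of 12 treated libraries above every control. Its log2 fold change of 1.95 ± 0.61 (SE, edgeR adjusted p = 0.0301) was 3.01 without control 1A, the control at 3753 CPM. The call was lost without each of the other 5 control libraries, without cGAMP 1C and in each colony alone (edgeR adjusted p of up to 0.387). By compound, the model was called with cGAMP (1.90, edgeR adjusted p = 0.0463) and not with cUA (1.99, edgeR adjusted p = 0.0754).

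**Figure D4:**
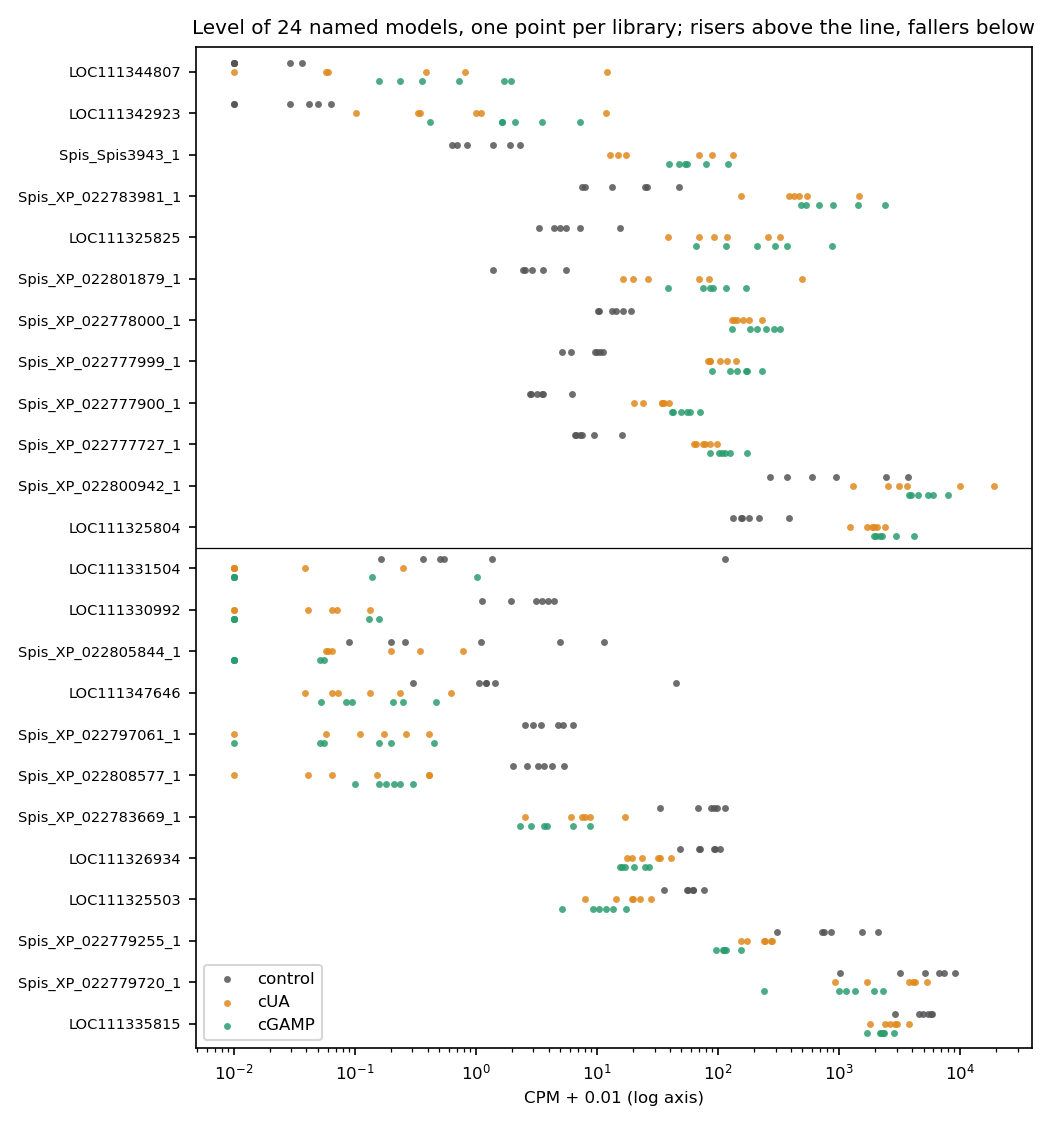
Level of the 24 named models in each library, as CPM + 0.01 on a log axis, with control, cUA and cGAMP libraries in grey, orange and green. In 10 of the 12 risers all 12 treated libraries lie to the right of every control, as in 2.59% of all tested models. The models were chosen for their change in these same libraries, which favours such a separation. Single libraries far from their group are seen for LOC111331504 and LOC111347646 (control 1A) and for LOC111344807 and LOC111342923 (cUA 2A).

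Among the largest falls of eligible models, 3 were expressed in every control library and almost lost with either compound. LOC111330992 (Spis_XP_022791745_1, 4 coding segments, plus strand of NW_019217946.1, 352520 to 355023) had 622 counts in the controls and 15 in the 12 treated libraries, and its log2 fold change was -5.92 ± 0.56 (SE, edgeR adjusted p = 1.23e-06), alike in colony 1 (-5.98) and colony 2 (-5.92). Spis_XP_022797061_1 (2 coding segments, minus strand of NW_019218056.1, 10233 to 11547) stood at 2.53 to 6.34 CPM in seawater (median 4.11), 0 to 0.401 CPM with cUA and 0 to 0.442 CPM with cGAMP. Spis_XP_022808577_1 (3 coding segments, minus strand of NW_019218670.1, 53966 to 56301) stood at 2.03 to 5.34 CPM in seawater (median 3.45), 0 to 0.401 CPM with cUA and 0.0916 to 0.296 CPM with cGAMP. The log2 fold changes of the last 2 were -4.73 ± 0.54 (SE, edgeR adjusted p = 7.01e-06) and -4.30 ± 0.47 (SE, edgeR adjusted p = 4.48e-06). In all 3 models every treated library was below every control, as in 1.47% of all tested models. The choice by fold change in these same libraries favours such a separation.

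The other 3 of the largest falls rested on few control libraries. LOC111331504 (Spis_XP_022792362_1, 8 coding segments, minus strand of NW_019217956.1, 407912 to 413671) stood at 115 CPM in control 1A and at 0.156 to 1.36 CPM in the other controls, against 0 to 0.239 CPM with cUA and 0 to 1.01 CPM with cGAMP. Its log2 fold change of -6.89 ± 1.80 (SE, edgeR adjusted p = 0.0104) was -2.92 without control 1A (edgeR adjusted p = 0.0291) and -1.54 in colony 2 alone (edgeR adjusted p = 0.479). LOC111331504 was called with cUA (-8.26, edgeR adjusted p = 0.0290) and not with cGAMP (-5.51, edgeR adjusted p = 0.0926). Control 1A also decided the size of the fall in LOC111347646 (Spis_XP_022810608_1, 3 coding segments, plus strand of NW_019219330.1, 14374 to 16826), which was -5.09 ± 1.04 (SE, edgeR adjusted p = 0.00176) with it and -2.38 without it. In colony 2 alone that call was lost (edgeR adjusted p = 0.0763).

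Spis_XP_022805844_1 (6 coding segments, minus strand of NW_019218384.1, 63401 to 74132) varied from 0.0798 to 11.6 CPM among the controls, with control 1B and 1C at the top. It stood at 0.0477 to 0.775 CPM with cUA and had 2 counts in all cGAMP libraries together, where the seawater level was 250 times as high (exact 95% interval 68.8 to 2064, counting error only). The log2 fold change of -5.09 ± 0.83 (SE, edgeR adjusted p = 0.00026) was -4.30 without control 1B, and 9 of 12 treated libraries were below every control.

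In the 4 falls with the smallest p-values above 20 CPM every treated library was below every control, although levels varied within groups. The choice by p-value in these same libraries favours such a separation. Spis_XP_022783669_1 (9 coding segments, plus strand of NW_019217843.1, 541859 to 576179) stood at 33.1 to 115 CPM in seawater (median 90.2), 2.56 to 17.3 CPM with cUA (median 7.73) and 2.33 to 8.84 CPM with cGAMP (median 3.77), with a log2 fold change of -3.71 ± 0.31 (SE, edgeR adjusted p = 4.25e-07). Its span contains that of another model on the same strand, Spis_XP_022783671_1 (543672 to 546691, log2 fold change -3.82), and the rule by which the counting step treated such overlaps is not stated, so the 2 may not be separate measurements. Spis_XP_022779255_1, with 66 coding segments (minus strand of NW_019217806.1, 924707 to 981221), fell from 308 to 2117 CPM in seawater (median 807) to 157 to 283 CPM with cUA and 96.5 to 154 CPM with cGAMP (median 113). Its log2 fold change was -2.67 ± 0.27 (SE, edgeR adjusted p = 2.14e-06), and treated and control libraries did not overlap.

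LOC111326934 (Spis_XP_022786756_1, 12 coding segments, minus strand of NW_019217788.1, 673761 to 681932) and LOC111325503 (Spis_XP_022785063_1, 8 coding segments, minus strand of NW_019217856.1, 257787 to 265784) changed less. LOC111326934 had a median of 82.3 CPM in seawater (49.1 to 104), 27.8 CPM with cUA (17.9 to 41.2) and 18.8 CPM with cGAMP (15.5 to 26.9), and its log2 fold change was -1.81 ± 0.17 (SE, edgeR adjusted p = 8.72e-07). LOC111325503 had medians of 59.9 CPM (35.7 to 76.4), 19.7 CPM (8.0 to 27.9) and 11.1 CPM (5.13 to 17.5), and its log2 fold change was -2.04 ± 0.20 (SE, edgeR adjusted p = 1.60e-06). Every treated library was below every control in both.

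The largest falls by amount of RNA were less steep. LOC111335815 (Spis_XP_022797545_1, 10 coding segments, plus strand of NW_019218067.1, 89494 to 95862) was at 2912 to 5821 CPM in seawater (median 5168), at 1800 to 3821 CPM with cUA (median 2785) and at 1700 to 2858 CPM with cGAMP (median 2269). The fall was -0.97 on the log2 scale ± 0.19 (SE, edgeR adjusted p = 0.00149), not called from the libraries of colony 2 (edgeR adjusted p = 0.186). Spis_XP_022779720_1 (29 coding segments, minus strand of NW_019217809.1, 221025 to 246459) stood at 1030 to 9154 CPM in seawater (median 5876), 921 to 5391 CPM with cUA (median 3955) and 241 to 2317 CPM with cGAMP (median 1251). It was called with cGAMP (-2.10, edgeR adjusted p = 0.0053) and not with cUA (-0.76, edgeR adjusted p = 0.375). The groups overlapped, with 3 of 12 treated libraries below every control, and the log2 fold change of -1.43 ± 0.40 (SE, edgeR adjusted p = 0.0150) was -0.93 and not called without control 2A (edgeR adjusted p = 0.108). Nor was it called from colony 2 by itself, or with all treated libraries fitted as 1 group (edgeR adjusted p = 0.177 and 0.0582).

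Cglr2, named for a cGAS-like receptor (Spis_XP_022802921_1, scaffold NW_019218231.1, 193575 to 195716, minus strand, 1 coding segment), did not pass the test in the average. It ran from 1.24 to 5.88 CPM in seawater and from 2.56 to 8.58 CPM over the treated libraries, 5 of which lay above every control, with a log2 fold change of 0.47 ± 0.31 (SE, edgeR adjusted p = 0.306). On the mitochondrial scaffold 2 of 12 tested models rose and 0 fell by edgeR, and 5 had an unadjusted p of less than 0.05, as did 33.8% of all tested models, of which 9.30% were called higher. Their log2 fold changes ran from -0.24 to 1.52 with a median of 0.62, against -0.05 over all tested models. The median was 0.17 with cUA, where 8 of 12 were above 0, and 1.08 with cGAMP, where 12 of 12 were. Some models there overlap, so they are not all separate measurements. The largest of these changes, 1.52 in Spis_YP_002149705_1, was in a scarce model, with means of 0.272 CPM in seawater and 0.844 CPM treated.

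The share of models called in each direction depended on which libraries set their level. Levels were compared per kb of coding length. By the mean over all 18 libraries, 15.3% of the 4506 models below 1 CPM per kb were called lower and 4.04% higher, while of the 1683 at 100 or more 7.37% were called lower and 11.1% higher. A rise or fall moves a model's own mean over these libraries, 12 of which were treated. By the mean of the 6 control libraries, a choice made after seeing the data, 9.82% of the 4452 models below 1 CPM per kb were called lower and 8.94% higher, and of the 1577 at 100 or more 11.9% were called lower and 4.57% higher. With the seawater and treated means given equal weight on the log scale, also chosen after seeing the data, 8.28% and 7.91% of the 1618 models at 100 or more were called lower and higher. The order of rises and falls among the most abundant models thus turned with the choice, and no direction is given for it.

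At intermediate seawater levels, 14.7% of the 7878 models at 1 to 10 CPM per kb were called lower and 9.71% higher, and 11% and 10.1% of the 7468 at 10 to 100. The background over all tested models was 12.2% lower and 9.30% higher. In seawater the median level was 9.39 CPM for the risers, 6.62 CPM for the fallers and 8.52 CPM over all tested models. After treatment these medians were 24.9, 2.74 and 8.38 CPM. The control libraries are also part of the contrast, so these levels are a description and were not tested.

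**Figure D5:**
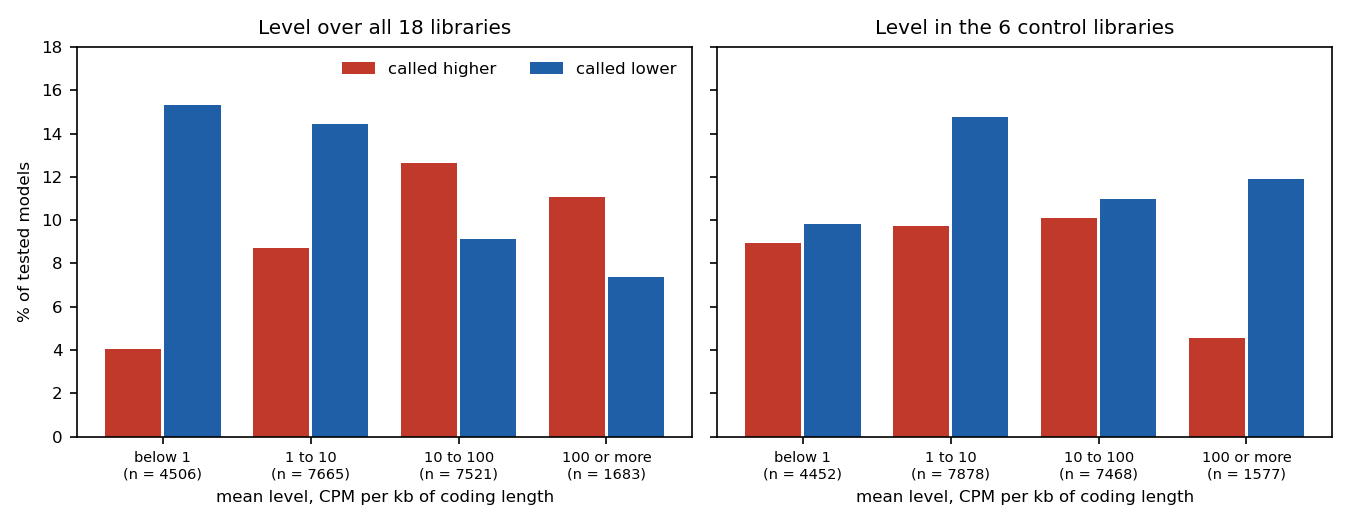
Percentage of tested models called higher (red) and lower (blue) in the average of both compounds, by mean level in CPM per kb of coding length over all 18 libraries (left) or the 6 control libraries (right). At 100 or more, higher calls exceed lower ones on the left (11.1% and 7.37%) and lower calls exceed higher ones on the right (11.9% and 4.57%).

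The shares called also varied with the structure and source of the models. Models with 1 coding segment were called higher in 8.89% and lower in 11.1%, and those with 30 or more in 6.61% and 10.6%. In the 2-fold test 83 of the 2924 models with 1 coding segment rose and 35 fell, against 448 and 421 of all 21375. Higher calls grew with coding length, from 7.84% of models below 600 bases to 12.2% of those of 3000 bases or more, while lower calls were 11.7% and 10.3%. Rises in the 2-fold test did not grow steadily with length. From the shortest class to the longest they were 89 of 3393, 181 of 10113, 112 of 5503 and 66 of 2366. The median standard error was 0.292 in the shortest class and 0.268 in the longest. Models from the predictor AUGUSTUS were called higher in 9.56% and lower in 5.27%, where those from Gnomon were called in 9.28% and 12.7%. Of the 40 risers over 16-fold 11 had 1 coding segment, and of the 33 such fallers 4, where 13.7% of all tested models have 1. The median seawater level was 1.93 CPM for those 40 risers and 1.28 CPM for those 33 fallers, and after treatment the medians were 43.2 and 0.0582 CPM.

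Measures of a whole library did not set treated and control libraries apart after adjustment over 4 such measures. At equal depth 24646.5 ± 358 models were detected in control libraries (SD, n = 6) and 24240 ± 414 in treated ones (SD, n = 12), a difference of -406.4 that was not called (exact permutation test within colonies, two-sided, p = 0.0565, adjusted p = 0.226). Without control 1A, the control with the fewest detected models, it was -508.9 (exact permutation test, adjusted p = 0.0366). The difference in the composition factor was -0.0939 (exact permutation test, adjusted p = 0.563), and -0.167 without control 1A (exact permutation test, adjusted p = 0.0366). The 50 most abundant models held 18.3% ± 2.37 of control counts and 18.6% ± 2.96 of treated counts, and the mitochondrial models 0.0147% ± 0.00466 and 0.0176% ± 0.00751 (SD; exact permutation test, adjusted p = 0.855 and 0.563). The part of these library-wide differences in the fold changes of single models was not tested.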

How the data were processed

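The deposited values are raw counts of reads per gene model, 1 column per library, and their totals differ between libraries. Per the submitters' processing notes the tools included STAR, featureCounts and DESeq2, without role or order; versions, settings, strand mode and genome build were not given in the sources used here. Per the labels' protocols the libraries were poly(A)-selected and directional. Start and end positions are those of the annotation the authors deposited, and lengths are coding lengths. By protein accession 13548 models matched a symbol of RefSeq assembly jaStyPist1.2 (4855 with the same version). No table gave descriptions or sequences, so 15 lists defined by description have no members and are void.

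Models passing edgeR's filterByExpr on the 6 treatment-by-colony groups were fitted with edgeR 4.0.16 in R 4.3.3 (TMM factors, robust quasi-likelihood, colony plus treatment, 14 residual degrees of freedom), and the contrast was the mean of both compound effects. Colony differences used a model of all 6 groups (12 residual degrees of freedom). The tests were tested on simulated data. Alternatives used DESeq2 1.42.0 and limma 3.58.1. No pair of libraries of a group differed by sampling noise alone (lowest chi-square per degree of freedom 17.0).

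Named models, with every part of the rule fixed with the design, followed the rule in the text, plus Cglr2. The models, lists and rules were chosen with earlier results of these data known.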

Additional observations from a re-analysis of the deposited data

Results flagged for a closer look

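Each treatment has 6 libraries, and a library far from the others of its treatment was looked for in 87 sets of 6 values. Chance alone would mark about 1 in 20 if the sets were independent, but many are levels of chosen models in the same libraries. Such a library was found in 12 sets, using log2(CPM + 2) for the named models, and this count was not tested. Control 1A stood apart in 4 of them, with 22.7% of its counts in the 50 most abundant models (15.9% to 18.4% in the other controls), a composition factor of 0.714 (1.04 to 1.23), LOC111331504 at 115 CPM (0.156 to 1.36) and LOC111347646 at 45.5 CPM (0.292 to 1.42). Control 2C stood apart for Spis_XP_022777900_1 at 6.24 CPM (2.80 to 3.60 in the other controls) and for LOC111335815 at 2912 CPM (4577 to 5821).

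Library cUA 2A stood apart for LOC111344807 at 12.1 CPM (0 to 0.803 in the other cUA libraries) and LOC111342923 at 11.9 CPM (0.0925 to 1.10). Library cUA 2C stood apart at low levels, for LOC111331504 at 0.239 CPM (0 to 0.0287) and LOC111347646 at 0.621 CPM (0.0287 to 0.225). Library cGAMP 2B stood apart for LOC111331504 at 1.01 CPM (0 to 0.129 in the other cGAMP libraries) and for Spis_XP_022779720_1 at 241 CPM (994 to 2317).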

How the results depend on the processing

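Risers and fallers, 1988 and 2608 in edgeR's main test, numbered 4344 and 5465 under sample weights in limma-voom. Fitted by itself, colony 1 gave 974 and 1473 and colony 2 gave 669 and 474. Without control 1A and cUA 2A there were 3141 risers. The 869 models changed by more than 2-fold became 558 with limma-voom, 489 from colony 1 and 285 from colony 2. The 0 models that differed between colonies became 1 (DESeq2), 625 (limma-voom under sample weights) and 2 without control 1A and cUA 2A. Scaling by total counts alone or by the upper quartile moved the median over all models from -0.05 to -0.18 and -0.14, and the share of risers among the calls from 43.3% to 34.0% and 34.1%.

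The difference in detected models ran from -508.9 to -331.8 and that in the composition factor from -0.167 to -0.0607 over the libraries left out in turn, and both passed without control 1A and cUA 2A together (-434.3 and -0.134, exact permutation test, adjusted p = 0.0421 each). Of 791 values of named models under alternatives, 774 kept their call or lack of one and 17 lost it, and 0 changed direction. With the replicate block, colony and letter together, 1774 rose and 2213 fell, and Spis_XP_022779720_1 was no longer called (edgeR adjusted p = 0.0665). The labels do not say that letters pair libraries, and deviations of same-lettered libraries correlated above 0.1 in 6 of 18 pairs, short of every pair. The correlations of these pairs ran from -0.468 to 0.362 with a median of 0.06. That 11 of 18 libraries correlated best with their own of 3 letters is a hint of pairing from the data, not the design, and was not tested. The cause of these shifts was not tested. Depth limits the scarce models, whose seawater levels can rest on a few counts.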

Other observations

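Called models tended to lie near models that moved the same way. Within 10 kb of the 1988 risers there were 3739 tested neighbours, of which 21.9% rose and 8.45% fell, where 9.54% and 11.8% of the neighbours of all tested models did. Within 10 kb of the 2608 fallers 23.7% of 4620 neighbours fell and 6.84% rose. A neighbour was counted once for each model it lay near, so the same model can recur in these numbers. Models with overlapping spans are among these neighbours.

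Several named models had such a neighbour. Spis_XP_022801880_1, next to Spis_XP_022801879_1, went from a mean of 3.87 CPM in seawater to 109 CPM over the treated libraries, a log2 fold change of 4.75 ± 0.68 (SE, edgeR adjusted p = 7.39e-05). LOC111325808, next to LOC111325804, went from 7.32 to 90.1 CPM, a log2 fold change of 3.59 ± 0.37 (SE). Spis_XP_022777728_1, next to Spis_XP_022777727_1, had a log2 fold change of 3.22 ± 0.30 (SE). Among falls, Spis_XP_022808578_1, next to Spis_XP_022808577_1, went from 1.42 to 0.0439 CPM, a log2 fold change of -5.10 ± 0.52 (SE). LOC111325503, which fell, had called neighbours in both directions, LOC111325551 at -2.19 ± 0.39 and LOC111325533 at 2.11 ± 0.37 (SE). Spis_Spis3943_1, one of the largest rises, had 2 tested neighbours within 10 kb, both not called, with log2 fold changes of 0.17 and 0.03.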
